A study of Bos taurus with 9 samples.

Results

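The genes described here are the NOTCH receptors NOTCH1, NOTCH2, NOTCH3 and NOTCH4, the ligands JAG1, JAG2, DLL1 and DLL4, and the targets HES1 and HEY1. They were found by gene symbol, and all 10 were present among the 17162 genes of the FPKM table. FPKM counts sequenced fragments, corrected for the length of the transcript and for the size of the library. The list was proposed with the FPKM values of these libraries already known, so the members were in part chosen by the values described below, and their levels and differences are given as a description. No p-value of a member is printed, and which members passed a threshold is stated once, beside the share of all genes that did, and supports nothing. The 9 libraries came from WT bovine endometrial cells (BEND) isolated from slaughtered Holstein cows, purified over several passages and sequenced as poly(A) RNA. They fall into 3 groups of 3 replicates: CON, without hormones or IFNT; GA, with 1 nM estradiol (E2) and 100 nM progesterone (P4); and GB, with the same E2 and P4 and then 100 ng/mL interferon tau (IFNT) for 12 h. The sources used here do not give separate harvest times for CON and GA, so time in culture and the addition of IFNT cannot be told apart in the comparisons with GB. Nor do they say whether replicates came from different animals, so the p-values measure the spread between these libraries, which may be technical.

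NOTCH receptors are membrane proteins that bind JAG and DLL ligands on a neighbouring cell. Ligand binding exposes the receptor to an ADAM protease and then to gamma-secretase, which frees its intracellular part. This part enters the nucleus, joins the DNA-binding protein RBPJ and a MAML coactivator, and switches on genes such as the HES and HEY repressors. In the endometrium the pathway is known from studies of stromal differentiation, and NOTCH3 is known as a receptor of mural cells, the pericytes and smooth muscle cells of vessels.

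The labels call the cells epithelial. The study reported its cultures positive for cytokeratin, stained with an antibody to the KRT18 protein, and this staining was not analysed here. The marker genes in these libraries went against the label. All 10 epithelial markers examined, among them KRT18, KRT8 and CDH1, had a mean of less than 0.5 FPKM over the libraries, and the highest value of any of them in any library was 0.74. The 10 stromal fibroblast markers, among them VIM, COL1A1 and PDGFRA, were all above that level and summed to 16934 to 17489 FPKM in CON and 17192 to 17612 in GA, with GB lower at 15408 to 15538. The sum was made up mostly of VIM, COL1A2 and COL1A1, and the markers did not move together. VIM averaged 9082 FPKM in CON, 8759 in GA and 7777 in GB. PDGFRA was instead highest in GB, at 195.7 FPKM against 150.2 in CON and 155.8 in GA. DCN and LUM in GB lay between CON and GA. Immune markers, 8 of 10 in the table, summed to 24.15 to 30.98 FPKM with overlap of all groups. Pearson's r of log2(FPKM + 0.5) across genes was between 0.989 and 0.991 within groups and between 0.986 and 0.99 from CON to GA, while the GB libraries stood apart from the others at 0.955 to 0.959. Summed over genes, the libraries held 1395622 to 1442723 FPKM, and the read depth behind a single gene is not given in the FPKM table.

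The primers that the study designed for its qRT-PCR of NOTCH3 are shown because this receptor set GB apart from the other groups most clearly among the members. They are written 5′ to 3′, and the qRT-PCR values were not analysed here.
NOTCH3 forward primer: tcaacacgcctggctctttc
NOTCH3 reverse primer: ggcacagtcataggtgaggtcg

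NOTCH3 was the member that differed most between groups. Its FPKM was 1.17, 1.14 and 1.2 in CON, 0.86, 0.85 and 0.92 in GA, and 11.25, 11.30 and 10.40 in GB. Every GB library lay far above the CON and GA libraries, and the GA libraries lay just below those of CON. The mean of CON was 1.17 ± 0.03 FPKM (SD, n = 3), that of GA 0.877 ± 0.0379 and that of GB 10.98 ± 0.506, so that GB was 9.39 times CON and 12.5 times GA. On the log2(FPKM + 0.5) scale, on which changes of low genes are understated, the log2FC of GB was 2.78 against CON and 3.06 against GA (SE 0.11 each). In GA vs. CON it was −0.28 (SE 0.11). In these bulk libraries fewer cells of a type and less RNA per cell cannot be told apart. Of 10 mural markers, the 9 that are not members summed to between 8350.6 and 8491.4 FPKM in the CON libraries, between 8710.2 and 8888.2 in those of GA and between 7874.9 and 8178.1 in those of GB, a sum made up mostly of ACTA2 and TAGLN. By group mean, ACTA2, CNN1, DES, CSPG4, MYH11, MCAM and RGS5 were lowest in GB, the last 2 with overlap of the groups. ACTA2 in GB lay below CON but overlapped GA (2487.63 FPKM in GB2, 2450.9 in GA3). TAGLN and PDGFRB in GB had means between those of CON and GA. PDGFRB was at 229.16 to 238.58 FPKM in GB, 212.35 to 225.35 in GA and 256.33 to 299.57 in CON. The share of all genes with such differences was not taken, so nothing is read from these directions. The part of mural cells in the NOTCH3 values was not tested.

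The other receptors differed far less. NOTCH2 was the most abundant member in every group, at 127.87, 153.23 and 132.22 FPKM in CON, 133.94, 133.63 and 137.44 in GA, and 111.16, 108.09 and 106.67 in GB. The GB libraries all lay below those of CON and GA, while CON and GA overlapped. The log2FC of GB for NOTCH2 was −0.34 against CON and −0.31 against GA (SE 0.064 each). The GC content of reads differed between CON and the treated libraries. When it was added to the model, the difference from CON was −0.12, whereas the difference from GA was −0.30. NOTCH1 was at 56.19, 65.91 and 57.89 FPKM in CON, 52.86, 54.46 and 53.84 in GA, and 54.72, 53.50 and 54.60 in GB. CON lay slightly above the treated groups, which overlapped each other. NOTCH1 had log2FC of −0.15 in GA and −0.14 in GB against CON, and of 0.01 in GB vs. GA (SE 0.061 each). With read GC content in the model its values against CON turned to 0.02 for GA and 0.05 for GB. NOTCH4, a receptor mainly of endothelial cells, was under the filter on low values (a mean of 0.5 FPKM) and was not tested. It was at 0.31, 0.37 and 0.23 FPKM in CON, 0.19, 0.19 and 0.14 in GA, and 0.20, 0.36 and 0.42 in GB, so that the GA libraries were the lowest. The row is annotated in the table as a Notch homolog 4-like protein.

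**Figure D1:**
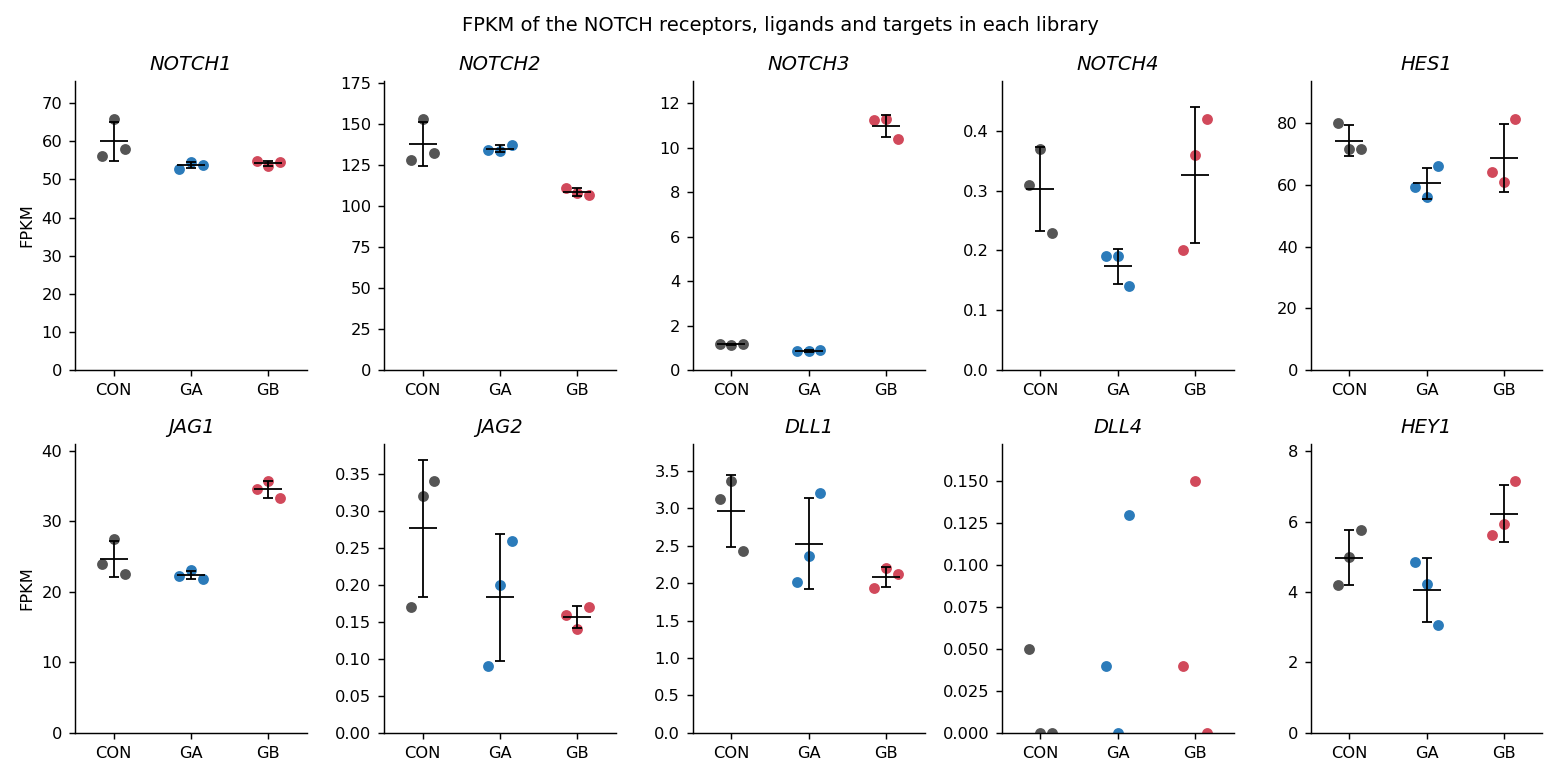
FPKM (y axis, from 0, scaled separately for each gene) of the 10 members in the CON, GA and GB libraries, with 1 point per library and the group mean ± SD as black bars (no mean is drawn for DLL4, which was listed at 0 in several libraries). NOTCH3 stands at 10.40 to 11.30 FPKM in GB and at 1.2 or less elsewhere, and JAG1 is also highest in the 3 GB libraries.

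Since FPKM is scaled for length, the receptors can be set against each other as shares of their summed FPKM. The sum of the 4 receptors in FPKM was 199.2 ± 18.8 for CON, 189.8 ± 2.31 for GA and 174.2 ± 2.75 for GB (SD, n = 3). NOTCH3 made up 0.591% ± 0.0646 of this sum in CON, 0.462% ± 0.0149 in GA and 6.30% ± 0.242 in GB. NOTCH2 made up 69.1% ± 0.278 in CON, 71.1% ± 0.425 in GA and 62.4% ± 0.352 in GB, with NOTCH1 at 30.1%, 28.3% and 31.2%. NOTCH2 and NOTCH1 together thus carried most of the receptor transcripts in all 3 groups, also in GB where NOTCH3 was high.

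JAG1 carried most of the ligand transcripts and was higher in GB. It was at 23.90, 27.50 and 22.56 FPKM in CON, 22.25, 23.04 and 21.83 in GA, and 34.53, 35.66 and 33.38 in GB. The GB libraries lay above all others, and CON and GA overlapped. GB was 1.4 times CON and 1.54 times GA, with log2FC of 0.48 (SE 0.074) and 0.61 (SE 0.074), short of the threshold of 1 that defines a DEG here. With read GC content in the model JAG1 was at 0.74 in GB vs. CON, and in GA vs. CON the sign turned from −0.13 to 0.11. With the replicate numbers added as well, it was at 0.65 in GB vs. CON. JAG1 made up 88.3% ± 0.673 of the summed ligand FPKM in CON, 89.0% ± 2.80 in GA and 93.7% ± 0.372 in GB (SD, n = 3). DLL1 supplied nearly all of the rest.

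DLL1, a delta-like ligand, was at 3.12, 3.36 and 2.43 FPKM in CON, 2.01, 2.37 and 3.20 in GA, and 1.94, 2.2 and 2.12 in GB. GB lay below CON, and GA spanned most of the range of both. Its log2FC was −0.42 in GB and −0.21 in GA against CON, and −0.21 in GB vs. GA, each with an SE of 0.17. JAG2 and DLL4, the latter known from endothelial cells, were under the low-value filter. JAG2 ranged from 0.09 to 0.34 FPKM over the 9 libraries, with overlap in every comparison. DLL4 was listed at 0.05, 0 and 0 FPKM in CON, 0.04, 0 and 0.13 in GA, and 0.04, 0.15 and 0 in GB, and no difference can be read from values this close to 0. Apart from NOTCH4 and DLL4, 8 endothelial markers were in the table, and 6 of them had a mean under 0.5 FPKM. In CON these 8 summed to between 2.47 and 4.24 FPKM, and in GA to between 2.07 and 4.41. The GB sum was higher, between 5.01 and 6.38, but the markers did not move together. It was made up mostly of EMCN and CDH5, with GB means of 2.53 and 1.94 FPKM. EMCN in GB overlapped GA, and CDH5 in GB overlapped CON. KDR was low but higher in every GB library (mean 0.423). TEK and VWF had their lowest means in GB, and PECAM1, TIE1 and ERG overlapped between groups. The part of these markers in the values of NOTCH4, DLL4 and NOTCH3 was not tested.

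**Figure D2:**
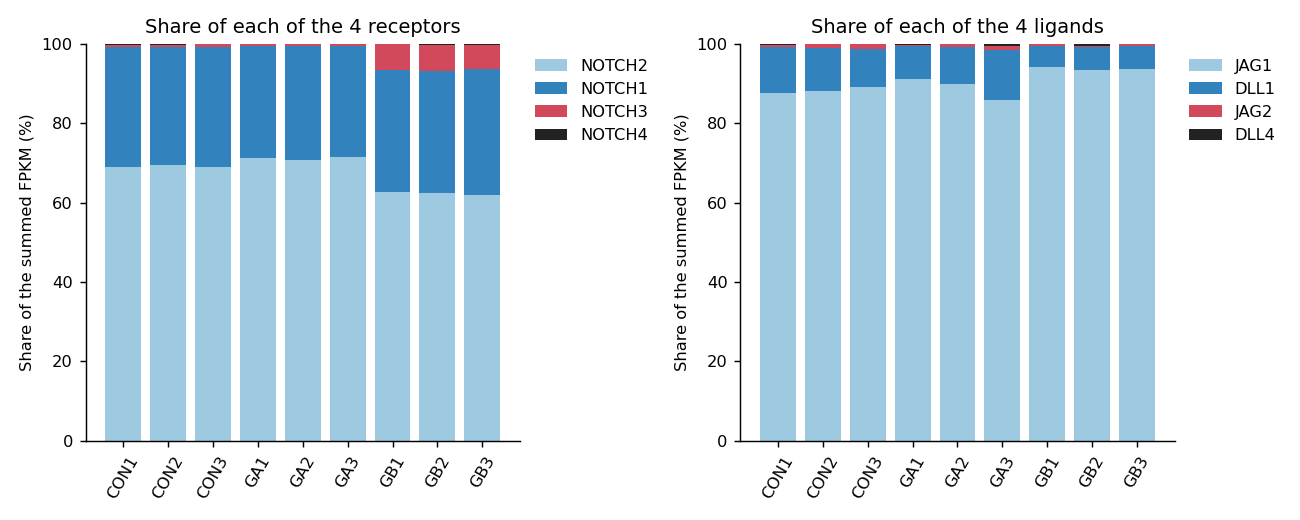
Share (%, y axis) of each receptor in the summed FPKM of the 4 receptors and of each ligand in that of the 4 ligands, with 1 stacked bar per library. NOTCH3 takes 6.04% to 6.52% of the receptor sum in the GB libraries, and JAG1 takes 93.5% to 94.2% of the ligand sum there.

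The target genes did not follow NOTCH3 in size. HES1, a transcriptional repressor and a classical target, was at 80.01, 71.50 and 71.50 FPKM in CON, 59.40, 55.95 and 66.03 in GA, and 64.23, 60.82 and 81.41 in GB. GA lay below CON, while GB overlapped both, with GB3 the highest library of all. The log2FC of HES1 was −0.30 in GA and −0.12 in GB against CON, and 0.18 in GB vs. GA, each with an SE of 0.11. These values were small and moved with single libraries and with read GC content. GB vs. CON was −0.25 without GB3, −0.04 without GB2 and −0.39 with read GC content in the model, GB vs. GA was 0.05 without GB3, and GA vs. CON was −0.55 with read GC content. HEY1, a related repressor, was at 4.20, 4.99 and 5.75 FPKM in CON, 4.86, 4.23 and 3.06 in GA, and 5.62, 5.92 and 7.14 in GB. GB lay above GA and overlapped CON. Its log2FC was 0.58 in GB vs. GA, 0.30 in GB vs. CON and −0.28 in GA vs. CON (SE 0.17 each). In GB vs. GA it stayed between 0.41 (without GA3) and 0.71 (without GA1) over the alternatives tried.

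In order of mean FPKM the members stood as NOTCH2, HES1, NOTCH1, JAG1, HEY1, DLL1, NOTCH3, NOTCH4, JAG2 and DLL4 in CON. Neighbours in this order did not overlap between their libraries except NOTCH4 and JAG2. In GA the order was the same but for JAG2 and NOTCH4, which overlapped, as did HEY1 and DLL1. In GB NOTCH3 stood above HEY1 and DLL1, directly after JAG1, and only the neighbours JAG2 and DLL4 overlapped. NOTCH2 stood at the 90.0th percentile of mean FPKM among all genes of the table, HES1 at the 82.8th and NOTCH1 at the 80.1st, against the 40.5th for NOTCH3 over all libraries.

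A gene was called a DEG when |log2FC| was above 1 and the adjusted p under 0.05 (limma, one fit over the 9 libraries, Benjamini-Hochberg adjustment over the 12578 genes above the filter). Of the 10 members, 7 passed the filter. In GB vs. CON 1 of the 7, NOTCH3, was called higher and 0 lower, beside 2.94% and 1.07% of all genes tested. In GB vs. GA it was again 1 higher, NOTCH3, and 0 lower, beside 2.66% and 0.978%. In GA vs. CON limma called 0 of the 7 in either direction, beside 0.0318% of all genes higher and 0.0398% lower, and 3 members (42.9%) had an unadjusted p under 0.05, beside 19.3% of all genes. By the adjusted p alone, NOTCH3 and JAG1 were higher and NOTCH2 lower in GB vs. CON, beside 16.2% of all genes higher and 17.3% lower. In GB vs. GA NOTCH3, JAG1 and HEY1 were higher and NOTCH2 lower, beside 9.87% and 19.2%. In GA vs. CON 0 members passed, beside 0.246% and 0.207%. Of 21 alternative settings, HEY1 passed in 14 in GB vs. GA, lost without GA2, GA3, GB2 or GB3, with no low-value filter and with the replicate block, alone or with read GC content. NOTCH2 in GB vs. CON passed in 19, lost with read GC content with or without the block, and JAG1 in 20, lost with both. As the members were proposed with these values known, nothing further is read from the counts. The comparisons with GB share the GB libraries, so their agreement for a gene is partly built in.

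**Figure D3:**
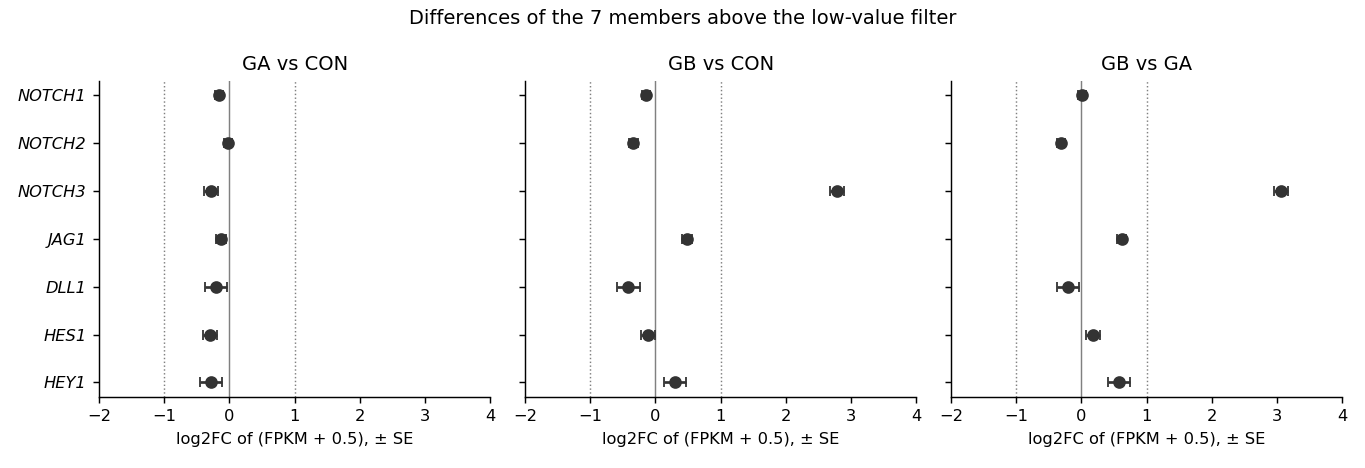
log2FC of FPKM + 0.5 (x axis) with its SE for the 7 members above the low-value filter in the 3 comparisons; dotted lines mark a log2FC of −1 and 1. NOTCH3 alone lies beyond the dotted lines, at 2.78 for GB against CON and 3.06 for GB against GA, and all 7 values in GA vs. CON lie between −0.30 and −0.02.

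The rest of the pathway was read from a list of 62 other genes, of which 60 were in the table and 52 passed the filter. In GB vs. CON 2 of the 52, DTX3L and HES4, rose past the DEG thresholds and 2, APH1B and MIB1, fell. This was 3.85% each way, beside 2.94% of all genes tested called higher and 1.07% lower. In GB vs. GA 3 rose (DTX3L, HES4 and TLE4) and 3 fell (APH1B, MIB1 and DLK2). This was 5.77% each way, beside 2.66% of all genes called higher and 0.978% lower. HES4 passed the low-value filter only through its GB libraries, so its calls are a description. By the adjusted p alone 8 rose and 18 fell in GB vs. CON, and 6 rose and 18 fell in GB vs. GA, to be read beside the shares of all genes given above; 18 of 52 is 34.6%. The median log2FC of the 52 was −0.18 in GB vs. CON against −0.02 for all genes, −0.13 in GB vs. GA against −0.08, and 0.06 in GA vs. CON against 0.06. In GA vs. CON limma called none of the 52, 0 had an adjusted p under 0.05, and 13 (25%) had an unadjusted p under 0.05, beside 19.3% of all genes.

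Ubiquitin ligases held the largest rise and a clear fall. DTX3L, a ubiquitin ligase of the Deltex family that partners with PARP9 and is known as an interferon-induced gene, was at 4.66, 4.10 and 3.64 FPKM in CON, 4.53, 5.08 and 6.98 in GA, and 121.71, 124.19 and 125.01 in GB. GB lay far above CON and GA, which overlapped, with a log2FC of 4.75 against CON (SE 0.14, adjusted p = 8.15e-09, limma) and 4.38 against GA (adjusted p = 1.48e-08, limma). Its relatives DTX2 and DTX4 did not pass in these comparisons, and DTX3 fell slightly in GB vs. CON (log2FC −0.36, adjusted p = 0.00378, limma). DTX3 did not pass in GB vs. GA (−0.13, adjusted p = 0.186, limma), and its log2FC was −0.23 in GA vs. CON. MIB1, the ligase that marks JAG and DLL ligands for the endocytosis that activates the receptor, was at 59.10, 66.77 and 57.06 FPKM in CON, 57.80, 57.54 and 60.23 in GA, and 30.61, 28.02 and 28.26 in GB. Every GB library lay near the middle between 0 and the other groups. The log2FC was −1.06 against CON (SE 0.066, adjusted p = 2.86e-06, limma) and −1.0 against GA (adjusted p = 4.42e-06, limma). Its call in GB vs. CON was lost without CON2 (−0.99) and with read GC content in the model (−0.85, or −0.77 with the replicate block). In GB vs. GA, where the value lay at the threshold, it was lost without GA3 (−0.98), GB2 (−0.98) or GB3 (−0.99), with a pseudocount of 1 (−0.99), TPM rescaling (−0.98), median-of-ratios factors (−0.93) and read GC content with or without the block (−0.99 each). The adjusted p of MIB1 stayed under 0.05 in all of these.

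NUMBL, an endocytic adaptor of the NUMB type that restrains NOTCH, fell against CON (log2FC −0.77, adjusted p = 0.000187, limma) and against GA (−0.76), with 30.5 ± 0.429 FPKM in CON, 30.6 ± 3.72 in GA and 17.8 ± 1.2 in GB (SD, n = 3). NUMB itself was at 52.2, 51.9 and 52.4 FPKM in CON, GA and GB and did not pass. FBXW7, which marks the intracellular part of NOTCH for degradation, was lower in GB than in GA (log2FC −0.63, adjusted p = 0.0207, limma), at 15.68, 11.85 and 18.60 FPKM in GA and 10.75, 8.06 and 10.22 in GB. This result was lost without GA1 (−0.60), GA3 (−0.48) or GB2 (−0.51).

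Among the proteases and gamma-secretase subunits, members moved in opposite directions. APH1B, a subunit of gamma-secretase, was at 8.11, 9.16 and 12.56 FPKM in CON, 9.97, 11.79 and 16.30 in GA, and 3.64, 4.09 and 5.55 in GB. Each GB library lay below every other library, and the log2FC was −1.08 against CON (SE 0.22, adjusted p = 0.00467, limma) and −1.41 against GA (adjusted p = 0.00127, limma). The call in GB vs. CON was lost without CON3 (−0.91) or GB1 (−0.96). Its paralogue APH1A, which can take the same place in the complex, rose slightly, from 101 ± 7.28 FPKM in CON to 122 ± 1.17 in GB (log2FC 0.27, adjusted p = 0.00624, limma). Of the ADAM proteases that make the cut before gamma-secretase, ADAM10 rose (0.30) and ADAM17 fell (−0.33) in GB vs. CON. FURIN, which cuts the receptors during their maturation, fell (−0.41) in GB vs. CON. Against GA, ADAM10 did not pass (log2FC 0.12, adjusted p = 0.07, limma), and its log2FC was 0.19 in GA vs. CON. ADAM17 (−0.29) and FURIN (−0.26) also fell in GB vs. GA. DTX3, APH1A, ADAM10, ADAM17 and FURIN were singled out after their values were seen. Of the O-glycosyltransferases, which modify the receptors, limma called 0 of the 4 tested in any comparison, and POFUT1 alone had an unadjusted p under 0.05, in GA vs. CON.

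In the nucleus, RBPJ, the DNA-binding partner of NOTCH, was lower in GB, with 68.1 ± 1.41 FPKM for CON, 65.6 ± 2.02 for GA and 52.7 ± 4.67 for GB (SD, n = 3; log2FC −0.37 in GB vs. CON, adjusted p = 0.00205, limma). KAT2B, an acetyltransferase coactivator, fell from 20.8 ± 1.09 to 12.7 ± 1.02 FPKM in GB vs. CON (log2FC −0.69, adjusted p = 9.47e-05, limma). The coactivator MAML2 rose by 0.40 on the log2 scale, and MAML1 did not pass. RBPJ and MAML2 were named after their values were seen. Of the 14 corepressors, all tested, 8 fell and 1 rose by the adjusted p in GB vs. CON, where 17.3% of all genes fell and 16.2% rose. In GB vs. GA 7 fell and 1 rose, where 19.2% of all genes fell and 9.87% rose. The one that rose was TLE4, a Groucho-type corepressor, at 10.29, 10.78 and 10.43 FPKM in CON, 8.70, 9.53 and 8.78 in GA, and 20.28, 18.05 and 18.89 in GB. Its log2FC was 0.83 against CON (adjusted p = 2.18e-05, limma) and 1.04 against GA (adjusted p = 4.51e-06, limma), and the call against GA was lost without GB1 (0.998). Its family members TLE2 and TLE3 fell in GB vs. CON by 0.69 and 0.46 on the log2 scale, and TLE1, at −0.39, did not pass. With read GC content in the model TLE3 no longer passed in GB vs. CON (−0.32, adjusted p = 0.186, limma). With the replicate block added to it, TLE2 (−0.38), TLE3 (−0.23), TLE4 (0.98), KAT2B (−0.86) and NUMBL (−0.68) did not pass in GB vs. CON.

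Of the other targets 5 of the 7 in the table passed the filter, and of the other ligands 1 of 3. HES4, a HES-type repressor, was at 0.22, 0.23 and 0.63 FPKM in CON, 0.69, 0.22 and 0.49 in GA, and 3.59, 1.29 and 2.64 in GB. The GB libraries lay above all others but varied among themselves, and the log2FC was 1.76 against CON (SE 0.34, adjusted p = 0.00403, limma) and 1.59 against GA (adjusted p = 0.0079, limma). The means of CON (0.36 FPKM) and GA (0.467) were under the filter level. HES4 thus entered the tested genes only through GB (2.51), and its p-values and calls are a description that supports nothing. With read GC content in the model the call in GB vs. CON was lost (adjusted p = 0.172, limma; 0.0543 with the replicate block). HES2, HES7, HEYL and NRARP did not pass in any comparison, and HES6 and HEY2 were under the filter. DLK2, a delta-like protein without the usual receptor-binding domain, was at 3.35, 2.85 and 3.68 FPKM in CON, 3.63, 3.59 and 3.92 in GA, and 1.91, 0.82 and 2.21 in GB. It fell by 1.04 on the log2 scale in GB vs. GA (adjusted p = 0.0114, limma), a call that was lost without GB2 (−0.72), with a pseudocount of 1 (−0.87), with median-of-ratios factors (−0.98) and with quantile normalization (−0.97). In GB vs. CON it fell by 0.88 (adjusted p = 0.0211, limma), a result lost without CON1 (−0.87) or CON3 (−0.81), with only the compared groups fitted (adjusted p = 0.0518, limma) or with read GC content (adjusted p = 0.169, limma; with the replicate block −0.42, adjusted p = 0.705). Without GB3 (−1.08) or with a pseudocount of 0.1 (−1.06) it was called.

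**Figure D4:**
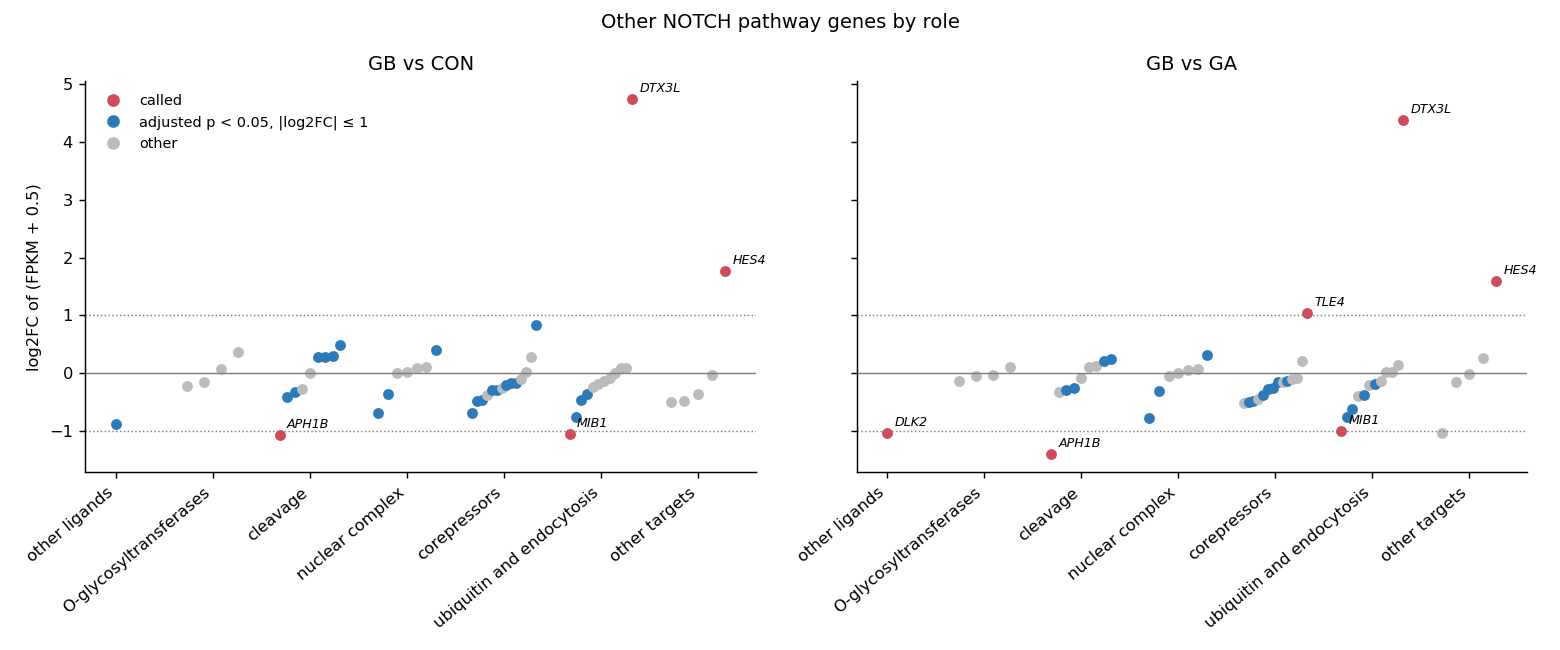
log2FC of FPKM + 0.5 (y axis) of the 52 other NOTCH pathway genes tested, by role, for GB against CON (left) and against GA (right); red points are DEGs, blue points have an adjusted p under 0.05 only, and dotted lines mark −1 and 1. DTX3L (4.75 and 4.38) and HES4 (1.76 and 1.59) lie above the other genes, and 8 of the 14 corepressors in GB vs. CON are blue points below 0.

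The tested genes with the pattern nearest to that of NOTCH3 were found by the root mean square difference of log2(FPKM + 0.5) over the 9 libraries, after the mean of each gene was subtracted. They were WARS (0.12), C2 (0.13), ZNFX1 (0.15), LOC112448863 (0.17) and C4A (0.17). WARS encodes a tryptophanyl-tRNA synthetase, C2 and C4A encode complement components, and ZNFX1 encodes a zinc finger helicase. Their levels ranged widely, from a mean of 8.63 FPKM in GB for C4A to 1655 for WARS, against 10.98 for NOTCH3. Like NOTCH3, C2 had a slightly lower mean in GA (1.4 FPKM) than in CON (1.81). Unlike those of NOTCH3, its libraries overlapped between these groups (1.84 in GA3, 1.64 in CON2). ZNFX1 and C4A were nearly level between CON and GA. The likeness rests mainly on the step between GB and the other libraries.

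**Figure D5:**
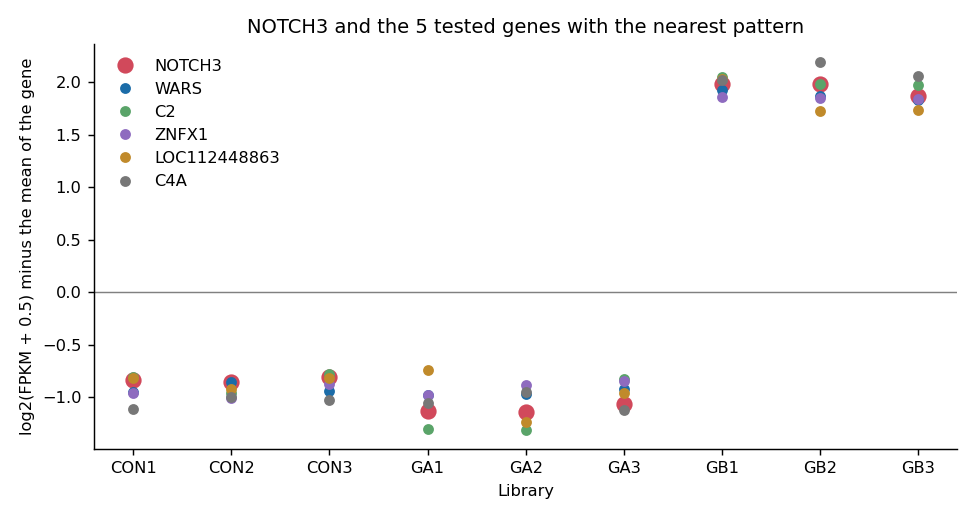
log2(FPKM + 0.5) minus the mean of the gene (y axis) in each of the 9 libraries (x axis) for NOTCH3 (large points) and the 5 tested genes nearest to it. All 6 genes lie below 0 in the CON and GA libraries and well above 0 in the GB libraries.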

How the data were processed

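RNA-seq of 9 bovine cell libraries, 3 each of CON, GA and GB, was read from the table the authors deposited. Per the study's methods and the labels, the authors trimmed reads with fastp 0.21.0, removed rRNA reads with Bowtie2, aligned to ARS-UCD1.2 with HISAT2 2.2.1, counted with RSEM 1.3.3 and computed FPKM, given per gene and library to 2 decimals. No source used here names the annotation release or the strand setting. With no counts, the DESeq2 test of the authors was not repeated. A model was fitted to log2(FPKM + 0.5) of the 12578 genes whose FPKM averaged 0.5 or more (R 4.3.3, limma 3.58.1 with a variance trend), with Benjamini-Hochberg adjustment over all genes and thresholds of |log2FC| above 1 and adjusted p under 0.05. It was tested on simulated data. With 3 libraries against 3, an exact permutation test cannot give p under 0.1. No library was dropped.

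The members, the pathway and marker lists and the tests were chosen with earlier results of these data known. Named genes are all members, and the 12 of largest |log2FC| among 28 other pathway genes that were called, or had an adjusted p under 0.05 without overlap of libraries. The 5 genes nearest to a called member were also named. Some items that these rules cover are not reported here. DLK1, HES5, PTPRC and CD3E were not analysed here. Neighbouring genes came from RefSeq (ARS-UCD2.0, names only). The replicate numbers did not pair the libraries.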

Additional observations from a re-analysis of the deposited data

How the results depend on the processing

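The 21 alternatives were pseudocounts of 1 and 0.1, no filter or a filter at 1 FPKM, TPM rescaling, median-of-ratios factors, quantile normalization, no variance trend, only the 2 groups compared, the replicate block, read GC content as a covariate without and with the block, and each of the 9 libraries left out. NOTCH3 was called in GB vs. CON (log2FC 2.46 to 3.12) and in GB vs. GA (2.67 to 3.5) under all 21, and no called value changed sign. JAG1 stayed between 0.41 and 0.74 in GB vs. CON and between 0.59 and 0.69 in GB vs. GA. NOTCH2 in GB vs. CON was −0.12 with read GC content and −0.03 with the block added, and the cause was not tested.

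Counts of pathway genes, members included, were 3 higher and 2 lower in GB vs. CON and 4 higher and 3 lower in GB vs. GA. They are to be read beside the shares of all genes called that are given above. The genes called lower in GB vs. CON numbered 1, APH1B, with read GC content, with or without the block, and 1 to 3 with single libraries left out. Those called lower in GB vs. GA numbered 1, also APH1B, with a pseudocount of 1 or with median-of-ratios factors, and 1 to 3 with single libraries left out. MIB1 (−0.99 and −0.93) and DLK2 (−0.87 and −0.98) were the genes lost in these last settings, where the log2FC fell short of −1. Counts of genes called higher were 2 or 3 in GB vs. CON and 3 or 4 in GB vs. GA, and 0 in GA vs. CON throughout. Same-numbered libraries did not deviate together (r −0.031 to 0.077 over 9 pairs), and in 4 of the 9 a library correlated better with its namesake than with the other libraries of the compared group. With the replicate block the counts of calls were the same in each comparison. FPKM gives no read depth, so values under about 0.5 FPKM were read only as listed.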

Other observations

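The genes next to NOTCH3 in the RefSeq gene order were looked at after the data had been seen. On one side, EPHX3, an epoxide hydrolase gene, rose from 5.22 FPKM in CON and 5.32 in GA to 8.90 in GB (log2FC 0.71 in GB vs. CON, adjusted p = 0.0102, limma, and 0.71 in GB vs. GA, adjusted p = 0.0116, limma). On the other side, the acetolactate synthase-like gene ILVBL was at 40.1, 38.7 and 40.3 FPKM in CON, GA and GB and did not pass. Beyond ILVBL, SYDE1 had a log2FC of 0.22 in GB vs. CON (adjusted p = 0.035, limma). It did not pass in GB vs. GA (0.15, adjusted p = 0.144, limma). Next to JAG1, SLX4IP and BTBD3 did not pass in any comparison.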
